A study of Mus musculus with 2 samples.

Results

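Uridine-tailed miRNA reads carry uridines at their 3′ end that the miRNA hairpin does not encode, and they were counted here in J1 mouse embryonic stem cells (mESCs) treated with the MEK inhibitor PD0325901 (PD) or with its solvent DMSO. A read sequence and its count, called a tag, was taken as uridine-tailed when it matched no annotated transcript perfectly and matched a miRNA hairpin perfectly once the fewest 3′ bases, 1 to 3 and all T, were removed, with 18 or more bases left. T in the tags stands for U in the RNA. Of 910008 distinct tags in the DMSO library and 1046544 in the PD library, 2314 and 2525 were uridine-tailed, 3288 different tags in all. Of these, 1551 were found in both libraries and held 101222 of the DMSO reads and 104938 of the PD reads, and 1322 were read only once over both libraries. A further 90 candidates matched another transcript perfectly and were left out, 3168 tags were assigned to a miRNA arm, and 120 lay outside every arm.

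J1 cells are an established mESC line and were cultured with 1000 U/mL of leukemia inhibitory factor in both groups. The PD group received 1 µM PD0325901 for 24 h and the control group received DMSO. RNA from 3 experiments was pooled into 1 small RNA library per treatment, so there are no replicates, and no value below carries an error between cultures. All intervals are 95% intervals that cover counting error only, and reads amplified by PCR without molecular identifiers are not independent molecules. The libraries held 18870345 clean reads (DMSO) and 20944808 clean reads (PD). Of these, 2180916 and 2111203 matched a miRNA hairpin over their whole length and are called templated. The miR-290-295 cluster, the hallmark miRNA cluster of mESCs, took 28.0% of templated plus tailed reads in DMSO and 27.5% in PD. In bulk RNA, fewer cells of a type and less RNA per cell cannot be told apart.

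Terminal uridylyl transferases, TUT4 (Zcchc11) and TUT7 (Zcchc6), add uridines to the 3′ ends of small RNAs and their precursors. The best known case is pre-let-7, which LIN28 presents to these enzymes in mESCs for a long uridine tail that is read by the nuclease DIS3L2. Short tails on mature miRNAs are also common. The 3′ end of a precursor hairpin lies on its 3p arm, so uridines added to the precursor are carried by 3p miRNAs after Dicer cleavage, whereas a tail on a 5p miRNA can only be added to the mature strand.

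To show what was counted, the most frequent templated tag and the most frequent uridine-tailed tag are given for the 10 arms with the highest tailed share in DMSO among arms with 1000 or more reads in each library, 5′ to 3′. Capitals mark the seed (bases 2 to 8) in templated tags and the nontemplated T in tailed tags. All 10 have a tail of 1 T here, and their seeds all differ.
miR-345-3p templated: cCCTGAACtaggggtctggag
miR-345-3p tailed: ccctgaactaggggtctggagT
miR-760-3p templated: cGGCTCTGggtctgtggggag
miR-760-3p tailed: cggctctgggtctgtggggagT
miR-341-3p templated: tCGGTCGAtcggtcggtcggt
miR-341-3p tailed: tcggtcgatcggtcggtcggtT
miR-24-3p templated: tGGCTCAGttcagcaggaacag
miR-24-3p tailed: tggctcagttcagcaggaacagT
miR-124a-3p templated: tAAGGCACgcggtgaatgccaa
miR-124a-3p tailed: taaggcacgcggtgaatgccaT
miR-363-3p templated: aATTGCACggtatccatctgta
miR-363-3p tailed: aattgcacggtatccatctgtaT
miR-291a-3p templated: aAAGTGCTtccactttgtgtgc
miR-291a-3p tailed: aaagtgcttccactttgtgtgcT
miR-23b-3p templated: aTCACATTgccagggattaccac
miR-23b-3p tailed: atcacattgccagggattaccacT
miR-152-3p templated: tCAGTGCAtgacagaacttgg
miR-152-3p tailed: tcagtgcatgacagaacttggT
miR-665-3p templated: aCCAGGAGgctgaggtccctta
miR-665-3p tailed: accaggaggctgaggtcccttaT

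In 9 of these 10 arms the T followed the complete templated tag, and in miR-124a-3p it stood in the place of the last templated base. Of the 1174 hairpins searched, the 10 arms come from these in build GRCm38, as annotated in GENCODE M21. Mir345 lies at chr12:108836973-108837068 (+) over an exon of Slc25a47, Mir760 at chr3:122293585-122293703 (-) over an exon of Gm17494, and Mir341 at chr12:109611500-109611595 (+) in an intron of Rian. Mir24-1 lies at chr13:63301208-63301275 (+) and Mir23b at chr13:63300484-63300557 (+), both within 2010111I01Rik, and Mir24-2 at chr8:84208815-84208921 (+). Mir363 lies at chrX:52741693-52741767 (-) and Mir291a at chr7:3218919-3219000 (+), with no other gene annotated on that strand. Mir152 lies at chr11:96850393-96850465 (+) in an intron of Copz2, and Mir665 at chr12:109586314-109586407 (+). miR-124a-3p tags match 3 hairpins, on chromosomes 2, 3 and 14.

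The let-7 family shares the seed GAGGTAG and illustrates which tails can be seen at all. When the base that follows a miRNA in its hairpin is itself T, an added U cannot be told from a longer templated end. For 4 let-7 arms with a single hairpin, the hairpin stretch is given with the next 4 bases in capitals, above the most frequent tailed tag with its tail in capitals. The other arms come from 2 hairpins each and are given as the templated tag with its seed in capitals and the tailed tag.
let-7e-5p hairpin: tgaggtaggaggttgtatagttGAGG
let-7e-5p tailed: tgaggtaggaggttgtatagttT
let-7b-5p hairpin: tgaggtagtaggttgtgtggttTCAG
let-7b-5p tailed: tgaggtagtaggttgtgtggtttT
let-7d-5p hairpin: agaggtagtaggttgcatagttTTAG
let-7d-5p tailed: agaggtagtaggttgcataTTT
let-7g-5p hairpin: tgaggtagtagtttgtacagttTGAG
let-7g-5p tailed: tgaggtagtagtttgtacagtttT
let-7a-5p templated: tGAGGTAGtaggttgtatagtt
let-7a-5p tailed: tgaggtagtaggttgtataTTT
let-7c-5p templated: tGAGGTAGtaggttgtatggtt
let-7c-5p tailed: tgaggtagtaggttgtatgTTT
let-7f-5p templated: tGAGGTAGtagattgtatagtt
let-7f-5p tailed: tgaggtagtagattgtataTTT

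let-7e-5p is followed by G, and its main tailed tag is the complete miRNA plus 1 T. The other single-hairpin members are followed by T, and the tailed tags of let-7b-5p and let-7g-5p first run through that T. The tailed tags of let-7a-5p, let-7c-5p, let-7d-5p and let-7f-5p end in TTT where the miRNA ends in GTT, so each equals the miRNA with 1 base changed. Over all arms, 320 tags with a tail of 2 or 3 T differed from the hairpin at the first tail base only, and held 18.7% of the reads with such tails in DMSO and 19.8% in PD.

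Pooled over all hairpins, 102239 of 2283155 reads were uridine-tailed in DMSO, a share of 4.48% (4.45 to 4.50), where the share is tailed reads over templated plus tailed reads. In PD 106273 of 2217476 reads were tailed, a share of 4.79% (4.76 to 4.82). The share was thus 1.07 times as high in PD (1.06 to 1.08), a difference larger than counting error, with no replicate check. In templated and tailed tags of at least 21 nt the ratio was 1.03. Templated tags of 18 to 20 nt made up 9.49% of templated reads in DMSO and 5.38% in PD. The rule allows no tail in a tag of 18 nt. Of reads of 19 nt 0.106% were tailed in DMSO and 0.180% in PD, and of reads of 20 nt 0.318% and 0.397%. Against all clean reads, tailed reads went the other way, from 5418 RPM (tailed reads scaled to a common number of clean reads) in DMSO to 5074 RPM in PD, a ratio of 0.937 (0.928 to 0.945). That direction depends on the denominator: it was 0.995 with TMM factors and turned to 1.04 with DESeq2 size factors and 1.07 per read that matches a hairpin.

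Nearly all tails were short. A single U made up 87.1% of the uridine-tailed reads in each library, 2 U made up 11% in DMSO and 10.9% in PD, and 3 U made up 1.85% and 2.08%. Over all ends, tails of A, trimmed by the same rule, were counted about as often as U tails. Their shares were 4.60% (4.57 to 4.62) in DMSO and 4.86% (4.84 to 4.89) in PD. An added base is hidden wherever the hairpin continues with that base. Ends where a tail can be seen were set apart for U alone, so these counts do not rank A and U tailing. Tails of G reached 0.693% and 0.864%, and tails of C 0.131% and 0.157%. These last values give the level at which reads with a wrong last base of another kind were counted by the same rule. Among 1-base tails in DMSO, T took 46.0%, A 44.9%, G 7.66% and C 1.43%, and the PD values were 45.6%, 44%, 8.83% and 1.59%. Among 2-base tails in DMSO, AA (30.6%) and AT (29.8%) came before TT (21.1%) and TA (6.90%). An AT tail can also be a single changed base before a templated T, and these forms were not separated.

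The hairpins show at which ends a tail would go unseen, but not how many tails were missed. The next hairpin base was T for 47.9% of templated reads in DMSO and 48.2% in PD. Restricted to reads whose next hairpin base is known and is not T, the pooled share was 8.20% in DMSO and 8.80% in PD. A further 115 tailed tags, with 1133 and 1058 reads, ended at the last annotated base of their hairpin, where the next genomic base was not used here.

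Tails sat close to the usual end of the miRNA. In DMSO 62.7% of tailed reads carried the tail directly after the end of the most frequent templated tag, 21.8% carried it 1 base earlier and 9.65% 1 base later. The PD values were 60.9%, 22.7% and 10.2%. Among ends where a tail can be seen, the share was higher at ends 1 base short (12.5% in DMSO, 14.1% in PD) than at the usual end (8.29% and 8.27%). It was also higher after a templated G (14.9% and 17.4%) than after A (7.89% and 8.62%), C (7.44% and 6.59%) or T (6.51% and 7.15%). Tailed reads started at the first base of the miRNA less often than templated reads, at 84.9% against 92% in DMSO and 84.6% against 91.5% in PD. These are properties of pooled reads, in which a few abundant miRNAs weigh most.

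The 3p arms carried more tails than the 5p arms. In DMSO 6.23% of 3p reads (6.19 to 6.28) and 2.39% of 5p reads (2.36 to 2.42) were tailed, and in PD 6.71% (6.67 to 6.76) and 2.64% (2.61 to 2.67). Within hairpins the order was mixed. Of 69 hairpins with 100 or more reads on both arms, 39 had the higher share on the 3p arm in both libraries and 26 had it on the 5p arm in both. The median share in these hairpins was 2.95% on the 3p arm and 1.36% on the 5p arm in DMSO, and 3.51% and 1.44% in PD. Without miR-320-3p, miR-341-3p and miR-124a-3p the pooled 3p share came to 4.26% in DMSO and 4.78% in PD. Limited to visible ends, the 3p share was 9.04% and the 5p share 6.37% in DMSO.

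A few arms held most of the tailed reads. Of the 306 arms with 100 or more reads in each library, 60 had a share of 10% or more in DMSO and 63 in PD, while the median was 2.03% in DMSO and 2.56% in PD. No tailed read was found for 27 arms in DMSO and 23 in PD. The 10 arms with the most tailed reads took 62.1% of all tailed reads in DMSO and 60.1% in PD. Over the 130 arms with 1000 or more reads in each library, the shares of the 2 libraries ranked almost alike (Spearman rho 0.993), whereas the U share and the A share in DMSO ranked only loosely alike (rho 0.295). The A share is A-tailed reads over templated plus A-tailed reads, so both shares have the templated reads in their denominators. Neither share was limited to visible ends, so the base that follows each arm in its hairpin also enters this ranking. These correlations are across arms, which share libraries and are not independent.

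miR-320-3p, from a hairpin made without Drosha, alone gave 16668 of the tailed reads in DMSO and 16017 in PD. Its share was 18.7% (18.4 to 18.9) in DMSO and 20.4% (20.1 to 20.7) in PD. Most of these tails sat at either of 2 ends. At the usual end, 10.9% of the reads with the same start and end carried 1 T in DMSO and 12.5% in PD, and at the end 1 base short it was 74.7% and 77.6%. Leaving miR-320-3p out gave pooled shares of 3.90% in DMSO and 4.22% in PD. miR-140-3p had 8235 and 9936 tailed reads, shares of 5.41% and 5.21%. miR-103-3p, made from introns of the pantothenate kinase genes Pank2 and Pank3, had 5126 and 5226, shares of 4.23% and 4.69%.

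The 10 highest shares among arms with 1000 or more reads in each library were all on 3p arms. miR-345-3p was tailed in 72.2% of its 3078 reads in DMSO (70.6 to 73.7) and in 70.6% of its 3161 reads in PD (69.0 to 72.2). miR-760-3p was tailed in 67.9% (65.3 to 70.5) and 71.5% (68.7 to 74.1). For both, the tailed form outnumbered the encoded one in each library, and the intervals of the libraries overlap. The main tailed tag of miR-345-3p was read 1130 times in DMSO and 1162 times in PD, against 204 and 406 for the templated tag of the same start and end, so the share at that end was 84.7% and 74.1%. For tags that start 1 base later it was 83.4% and 87.2%. The share of miR-345-3p passed as lower in PD by the adjusted Fisher test in 3 alternatives, in tags from the first base of the miRNA (74.9% and 68.6%, p of 0.000565), with 20 or more bases left (76.3% and 72.6%, p of 0.0232) and in tags of 21 nt or more (82.3% and 77.0%, p of 3.56e-05). miR-24-3p, encoded beside miR-23b and miR-27b, was tailed in 43.2% and 41.6% of reads. miR-23b-3p followed with 36.0% and 35.5%, miR-152-3p with 29.8% and 31.3%, and miR-665-3p with 24.1% and 24.3%. Adjusted Fisher p was 0.319 for miR-24-3p and 0.835 for miR-152-3p, and the 2 libraries ordered these 4 arms alike. Tails of A ran from 0.108% (miR-363-3p) to 5.06% (miR-665-3p) in DMSO on 8 of the 10 arms. For miR-760-3p the A share was 10.9% and for miR-341-3p 30.6%. These A shares leave out U-tailed reads, so they and the U shares are not parts of the same total. The hairpin continues with A after the templated tags of miR-363-3p and miR-345-3p, so an A added there is hidden and their A shares are undercounts.

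At the other end of the list, 4 of the 5 arms of lowest share end where nearly every tail is hidden. miR-290a-5p had 10 tailed reads of 207156 in DMSO (0.00483%) and 14 of 189889 in PD, and 100.0% of its templated DMSO reads were followed by T. miR-128-3p, abundant in the nervous system, had 2 of 18427 and 4 of 18109, with T next for 99.7% of its DMSO reads. miR-329-3p had 0 of 1916 and 0 of 1668 reads, which allows a share of up to 0.157% and 0.180%. let-7d-5p had 0 of 2787 in DMSO, which allows up to 0.108%, and 2 of 2908 in PD. miR-33-5p, encoded in an intron of the sterol regulator Srebf2, differs from these because 68.2% of its templated DMSO reads were followed by T and the rest were not. It had 0 of 1984 reads in DMSO, which allows up to 0.151%, and 4 of 2876 in PD.

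The let-7/miR-98 group as a whole was tailed in 1.20% of reads in DMSO (1.15 to 1.25) and 1.30% in PD (1.25 to 1.35), below the pooled share of all miRNAs. let-7e-5p alone gave 2000 of these tailed reads in DMSO and 2344 in PD, or 88.2% and 90.6% of them. Its share was 10.1% (9.66 to 10.5) in DMSO and 10.4% (9.96 to 10.8) in PD. let-7b-5p reached 2.17% and 2.55%, and the other 5 well-read members stayed below that. let-7a-5p had 45 of 34212 and 39 of 35294 reads, let-7c-5p 70 of 61198 and 62 of 57077, and let-7f-5p 45 of 52696 and 40 of 60214. let-7g-5p had 11 of 16192 and 17 of 18911. For let-7a-5p 77.8% of the few tailed DMSO reads had 2 or 3 T, and for let-7f-5p 100%. In the whole group, 38.5% of the DMSO reads with such tails differed from the hairpin at the first tail base only. In PD it was 30.7%. Where the next base is known and not T, the group's share was 10.6% in DMSO and 10.9% in PD, and it rests almost wholly on let-7e-5p. Of the 8 let-7/miR-98 arms with 100 or more reads, 0 passed the Fisher test between the libraries, whether its p was adjusted or not. Of all 306 arms, 5.88% were called higher and 1.31% lower with adjustment, and 48 passed with p not adjusted. A count of 0 of 8 is thus near the background. At visible ends let-7c-5p was higher in PD, 10.9% against 18.5%, with an adjusted Fisher p of 0.0167. Its templated tags of 18 to 20 nt were 1.67% and 0.717% of templated reads, and the ratio over all ends was 0.95.

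The miR-290-295 cluster encodes pairs of arms whose 3p strands include miR-291a-3p and miR-294-3p, which share the seed AAGTGCT, and whose 5p strands include miR-290a-5p, miR-292a-5p and miR-293-5p, which share CTCAAAC. The cluster was tailed in 1.68% of reads in DMSO (1.65 to 1.71) and 1.79% in PD (1.76 to 1.83), or 6.87% and 6.94% at visible ends. Its arms ranged widely. miR-291a-3p was tailed in 37.0% of 14424 reads in DMSO and 36.6% of 13255 in PD, and 23.2% of its DMSO tails had 2 or 3 U. miR-294-3p, of the same seed, had only 103 of 54752 and 96 of 49079 tailed reads, 0.188% and 0.196%, and its next hairpin base was T for 98.2% of templated DMSO reads. miR-292a-5p was tailed in 17.2% and 16.3%, against 1.48% and 1.46% for miR-293-5p. Both can be seen, since T came next for only 4.94% and 4.57% of their templated DMSO reads. miR-291b-3p gave 8.18% and 6.93%, miR-291b-5p 7.54% and 7.47%, miR-295-3p 3.33% and 3.52%, miR-291a-5p 1.19% and 1.44%, miR-295-5p 1.23% and 1.10%, miR-292-3p 0.681% and 0.825%, miR-294-5p 0.483% and 0.453%, and miR-293-3p 0.0903% and 0.114%. By Fisher's exact test with Benjamini-Hochberg adjustment, 0 of the 14 arms with 100 or more reads passed between the libraries, and 3 did with p not adjusted. Over all 306 arms 5.88% were called higher and 1.31% lower, and 48 passed with p not adjusted, so a count of 0 is near the background. At visible ends miR-293-3p was higher in PD, 0.925% against 1.63%, with an adjusted Fisher p of 1.53e-07. Its templated tags of 18 to 20 nt fell from 8.73% to 4.89% of templated reads, and its main tailed tag (69 and 101 reads) equals the templated tag with 1 base changed. Over all ends the ratio was 1.26 with an adjusted Fisher p of 0.153. There it was 1.22 in tags of 21 nt or more and 1.10 without such tails, with adjusted Fisher p of 0.383 and 0.958. Neither filter was applied at visible ends.

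To ask whether MEK inhibition went with a change in tailing, the share of each arm was compared between the libraries. A ratio of 1.5 or more was found for 51 of the 306 arms upward (16.7%) and 24 downward (7.84%). By a 2-sided Fisher exact test on tailed and templated reads, which compares 2 libraries and not the treatments, 18 arms were higher in PD at an adjusted p under 0.05 (5.88%) and 4 were lower (1.31%). Only 5 and 2 arms met both criteria. With visible ends alone the 1.5-fold counts were 49 upward and 12 downward of 251 arms. The upward part of the calls was then 80.3% against 68.0% over all ends. By the adjusted Fisher test 25 of these 251 arms were higher in PD and 4 were lower. With tags of 21 nt or more, 9 of the 18 higher calls and all 4 lower calls were kept.

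Of the arms with 1000 or more reads in each library, 2 passed the adjusted Fisher test as lower in PD, miR-124a-3p and miR-341-3p. A further 4 had ratios beyond 1.5-fold downward and did not pass. miR-124a-3p is known for its role in neurons. Its share was 43.2% in DMSO (42.2 to 44.3) and 31.9% in PD (31.1 to 32.6), a ratio of 0.737 with an adjusted Fisher p of 4.10e-64. Templated reads went from 4815 to 9885 while tailed reads went from 3663 to 4622. Reads ending 1 base short with 1 T were 90.0% of those of the same start and end in DMSO and 79.4% in PD, and at the usual end they were 19% and 8.53%. miR-341-3p, from the Dlk1-Dio3 region, fell from 66.2% (65.4 to 67.0) to 51.4% (50.5 to 52.2), a ratio of 0.776 with an adjusted Fisher p of 5.99e-133. Its main tailed tag was read 7805 and 6280 times, and its templated partner 1460 and 3192 times. Both falls held with tags of 21 nt or more, at ratios of 0.722 and 0.723. In tags that start at the first base of the miRNA the ratio was 0.731 for miR-124a-3p. For miR-341-3p it was 0.865 there (74.6% and 64.6%), a smaller fall than over all its tags. The A share was lower in PD in both arms as well. It went from 3.02% to 1.76% for miR-124a-3p and from 30.6% to 19.3% for miR-341-3p, so the falls were not particular to U tails. The other lower calls, named after their values were seen, were miR-150-3p with 129 and 120 reads (49.6% and 28.3%) and miR-331-3p (28.6% and 12.2%).

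The 2 arms called higher with fewer reads than the naming rule asks, named after their values were seen, were miR-296-3p, with 11 tailed of 2640 reads in DMSO and 15 of 693 in PD, and miR-540-3p, with 61 of 733 and 73 of 441. Their ratios were 5.19 and 1.99, and miR-540-3p kept 1.64 with an adjusted Fisher p of 0.0450 in tags of 21 nt or more, where miR-296-3p had too few reads. Several of the largest rises among well-read arms were in arms with fewer short templated tags in PD. miR-382-5p went from 60 tailed of 16052 reads (0.374%) to 74 of 9541 (0.776%), a ratio of 2.07 with an adjusted Fisher p of 0.000680. miR-148b-3p went from 7.09% to 11.9%, a ratio of 1.68 with an adjusted Fisher p of 0.000561. The arms miR-27a-3p and miR-27b-3p, counted together because their most frequent tag is the same, went from 1.56% to 2.48%. The share of miR-101b-3p went from 2.02% to 3.0%. Adjusted Fisher p was 0.0367 for miR-27a-3p/miR-27b-3p and 9.89e-18 for miR-101b-3p. Over all arms, templated tags of 18 to 20 nt fell from 9.49% to 5.38% of templated reads. They also fell in the arms with lower tailed shares, from 34.1% to 10.2% for miR-341-3p and from 9.62% to 5.24% for miR-124a-3p. For miR-148b-3p they fell from 59.9% to 34.1%, and for miR-27a-3p/miR-27b-3p from 91.5% to 82.6%. For miR-101b-3p they fell from 66.6% to 44.4%, and for miR-382-5p from 54.8% to 42.8%. With tags of 21 nt or more the ratios were 1.06, 0.835, 0.913 and 1.64 in that order, and none passed the Fisher test. At a fixed start and end, 9.05% of miR-101b-3p reads with the main tailed end carried 1 T in DMSO and 7.46% in PD. miR-541-5p went from 2.04% to 2.80%, a ratio of 1.37, and gave 1.34 with an adjusted p of 0.0916 in tags of 21 nt or more.

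miR-363-3p, an arm of the miR-106a-363 cluster with a high share, rose from 41.6% (40.2 to 43.0) to 52.2% (50.7 to 53.7), a ratio of 1.25 with an adjusted Fisher p of 1.87e-21. Its templated tags of 18 to 20 nt fell from 23.2% to 11.7% of templated reads, and in tags of 21 nt or more the ratio was 1.15 with an adjusted p of 7.96e-09. For its main tailed end, reads with 1 T made up 51.4% of those of the same start and end in DMSO and 60.8% in PD. miR-320-3p and miR-103-3p were also higher in PD, by ratios of 1.09 and 1.11 with adjusted Fisher p of 4.23e-17 and 3.84e-06, and both held in tags of 21 nt or more. Of the other higher calls, named after their values were seen, miR-182-5p, miR-127-3p, miR-134-5p, miR-674-5p and miR-30d-5p also passed in tags of 21 nt or more, at ratios of 1.34, 1.12, 1.23, 1.29 and 1.34. miR-25-3p, miR-101a-3p and miR-181d-5p did not, at ratios of 1.07, 1.12 and 1.04 and adjusted Fisher p of 0.481, 0.798 and 0.383.

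Among the other miRNA families, read against the median share of 2.03% in DMSO and 2.56% in PD over all 306 arms and against 16.7% of arms higher and 7.84% lower by 1.5-fold, the 8 arms of the family of miR-130 and miR-301 had medians of 7.11% and 7.29%, and 0 of them changed by 1.5-fold. The 8 arms of the miR-30 family had medians of 5.85% and 5.50%, with 1 arm higher and 1 lower by 1.5-fold. The 8 arms of the miR-15/16 family, which restrains the cell cycle, had medians of 1.53% and 3.24%, with 4 arms higher and 1 lower by 1.5-fold. Of these 8 arms 0 passed the adjusted Fisher test, and 2 passed with p not adjusted, against 48 of all 306 arms. The 7 arms of the miR-17-92 cluster, known for promoting proliferation, had medians of 2.82% and 3.72%, with 1 arm lower by 1.5-fold. The 5 arms of the family of miR-200 and miR-141, regulators of the epithelial state, had medians of 6.71% and 6.22%, with 1 arm higher. By the adjusted Fisher test 1 arm was higher in each of several groups, against 5.88% of all arms. These were miR-30 (8 arms), miR-106a-363 (8 arms), miR-181 (5 arms) and miR-106b-25 (5 arms). The others were miR-183, miR-96 and miR-182 (5 arms), and miR-148 and miR-152 (3 arms). With so few arms per group, 1 call cannot be set apart from that background. The miR-302-367 cluster had only 1 arm with 100 or more reads, miR-302a-5p, with 1 tailed read of 172 in DMSO and 0 of 334 in PD, which allows a share of up to 0.898%.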

How the data were processed

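The deposited files hold counts of clean reads per distinct tag in 1 library per treatment. Per the labels and the methods, the authors pooled RNA of 3 experiments, sequenced small RNA on an Illumina HiSeq, removed low-quality, adapter and contaminant reads and reads under 18 nt, and collapsed identical reads. No alignment is in the files. Build mm9 is named in the submitters' processing notes, and the trimming tool is not given in the sources used here. Removing short reads hides short tailed tags. Each file's closing total was left out.

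Tags were matched to 1174 hairpins of GENCODE M21 (GRCm38) with Python 3.11.15. Arms were set by the loop of the ViennaRNA 2.7.2 fold, with 16 or more bases of overlap with the most frequent tag, and 898 of 1141 arms were named from RefSeq. Arms with 100 or more reads in each library were tested by Fisher's exact test (SciPy 1.17.1) with Benjamini-Hochberg adjustment over all 306, with Wilson intervals for shares, Katz intervals for ratios and exact intervals for RPM ratios. Matching and tests were tested on simulated data. TMM factors came from edgeR 4.0.16 and size factors from DESeq2 1.42.0; their tests need replicates and were not run.

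Among arms with 1000 or more reads, those named were the 10 of highest and 5 of lowest share in DMSO, the 5 with most tailed reads, the 5 largest rises and falls that passed the Fisher test, and every let-7/miR-98 and miR-290-295 arm. Only 2 falls qualified. Members and lists were chosen with earlier results of these data known. Alternatives were other denominators, tail lengths, tag ends, filters, depths and normalizations.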

Additional observations from a re-analysis of the deposited data

How the results depend on the processing

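Each pair of shares gives DMSO first and PD second. With tags that start at the first base of the miRNA, the shares were 4.15% and 4.44% pooled, 5.80% and 6.28% for 3p arms and 1.55% and 1.65% for miR-290-295. With tails of 1 T alone they were 3.92% and 4.20% pooled, 5.47% and 5.91% for 3p, 2.09% and 2.30% for 5p, 1.05% and 1.14% for let-7/miR-98 and 1.41% and 1.51% for miR-290-295. With 20 or more bases left they were 4.66% and 4.87% pooled (ratio 1.05), 6.69% and 6.92% for 3p, 1.13% and 1.24% for let-7/miR-98, and 1.72% for miR-290-295 in DMSO. Visible ends gave 8.20% and 8.80% pooled, 9.04% and 9.56% for 3p, 6.37% and 7.19% for 5p, 10.6% and 10.9% for let-7/miR-98 and 6.87% and 6.94% for miR-290-295. Counting each distinct tag once gave 25.7% and 27.5% pooled, 30.8% and 33.0% for 3p, 21.4% and 22.9% for 5p, 26.2% and 28.8% for let-7/miR-98 and 32.6% and 33.7% for miR-290-295. Tags that match a single arm gave 6.31% and 6.78% for 3p.

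Some alternatives were chosen after seeing the data. Tags of 21 nt or more gave 4.91% and 5.04% pooled (ratio 1.03), 7.15% and 7.21% for 3p, 2.48% and 2.71% for 5p and 1.74% and 1.84% for miR-290-295. Leaving out tails of 2 or 3 T that differ at the first tail base only gave 4.38% and 4.68% pooled, 6.18% and 6.65% for 3p, 2.23% and 2.46% for 5p, 1.63% and 1.73% for miR-290-295, and 1.14% for let-7/miR-98 in DMSO. Without miR-320-3p, miR-341-3p and miR-124a-3p they were 3.37% and 3.72% pooled (ratio 1.11) and 4.26% and 4.78% for 3p. Without tags of 1 read the pooled PD share was 4.76%.

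The 1.5-fold counts, upward and downward, were 90 and 41 with 10 or more reads, 10 and 4 with 1000 or more, 107 and 61 with no filter, 5 and 2 with the Fisher criterion as well, and 28 and 12 at 2-fold. At visible ends 12 arms were lower by 1.5-fold. The RPM ratio was 0.995 with TMM factors, 1.04 with DESeq2 size factors and 1.07 per hairpin-matching read. Among named arms, let-7c-5p turned to a ratio of 1.69 (adjusted p 0.0167) at visible ends, miR-27a-3p/miR-27b-3p to 0.739 with 20 or more bases left and to 0.835 in tags of 21 nt or more, and miR-101b-3p to 0.913 in tags of 21 nt or more. The cause was not tested. No paired analysis was possible because each treatment has 1 library. Arms with under 100 reads were not tested. The hairpins are of the reference strain, and variants of J1 cells were not compared.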
